A study of Danio rerio with 12 samples.

Results

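The Hox cluster genes are the subject here, read in whole zebrafish embryos with 2 copies or 1 copy of a Gal4 knock-in at etv2. Members were all genes whose symbol was hox, a letter from a to d, a paralog number from 1 to 13 and the letter a or b of the duplicated cluster. This gave 49 genes of the 31172 in each deposited table, and none was dropped for equal values in all 6 libraries of a stage. They fall into 7 clusters, with 7 genes in hoxaa, 5 in hoxab, 11 in hoxba, 4 in hoxbb, 11 in hoxca, 4 in hoxcb and 7 in hoxda. The rule for members used their symbols only and no measured value, though it was chosen with earlier results of these data known.

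RNA was sequenced from batches of 15 to 20 embryos, with 3 libraries per genotype and stage and 12 libraries in all. The 4 groups were homozygous and heterozygous carriers of the allele etv2 Gt(2A-Gal4)ci32 at the 15-somite stage, and homozygous and heterozygous carriers at 24 hpf (hours post fertilization). All groups descended from matings between heterozygotes that also carried UAS:GFP, a reporter that Gal4 switches on, and offspring were told apart by where GFP shone. No embryo free of the allele was in the comparison, so every difference below is homozygous minus heterozygous. Embryos for the 15-somite stage grew at 24 °C and those for 24 hpf at 28 °C, so the stages also differ in temperature. The sort on GFP, rather than a genotype read from DNA, is the basis of the group labels, and each library pools many embryos.

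Hox genes encode homeodomain transcription factors that give cells along the body axis their position. Genes with low paralog numbers mark the hindbrain and anterior trunk, and genes with high numbers mark the posterior trunk, tail and fin buds. Within a cluster, genes are switched on in order of their paralog number as the axis grows, so an embryo lagging or leading in axial age would be read from posterior genes relative to anterior ones. The teleost genome duplication left most clusters in 2 copies, named with a or b. In zebrafish, Hox genes also act downstream of Cdx factors in the formation of embryonic blood, and etv2 encodes an ETS-family factor at the start of endothelial and myeloid development.

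A deposited value is a log2 level relative to the median of the same gene over the 6 libraries of its stage, so it ranks libraries for 1 gene and cannot rank genes. The level behind a row was known only as a class of its median. Genes with a median of 16 normalized units or above were tested with limma, 18341 at the 15-somite stage and 18899 at the later one, and those with a p below 0.05 after Benjamini-Hochberg adjustment over all of them are the called genes. In the upper level class, at 16 times that limit or above, lay 40 Hox genes at the 15-somite stage and 38 at 24 hpf. The lower tested class held 8 and 11, and hoxb13a lay below 4 units at the 15-somite stage and was not tested there. Transcripts of etv2 checked the labels. At the 15-somite stage they stood at 16.3%, 13.3% and 12.9% of the heterozygous mean in the homozygous libraries, against 106%, 97.7% and 96.7% in the heterozygous libraries. At 24 hpf they stood at 13.8%, 7.4% and 14.0% in homozygous libraries, against 101%, 99.2% and 99.6% in heterozygous libraries. The groups were far apart at both stages, with log2 differences of -2.83 (SE 0.10, limma adjusted p = 0.000218) and -3.15 (SE 0.23, adjusted p = 0.00286). In whole embryos, fewer cells of a type and less RNA per cell cannot be told apart, for etv2 and for every Hox gene below. In the table of the 15-somite stage 2 homozygous columns share a name, and they are called homozygous a and b beside homozygous 2.

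No Hox gene was called at the 15-somite stage, when the embryo is still adding trunk and tail segments. Of the 48 Hox genes tested, 0 had an adjusted p below 0.05 in limma, where 4.33% of all tested genes were called. The lowest adjusted p was 0.0709, of hoxc5a. At an unadjusted p below 0.05, 8 Hox genes were higher in homozygous embryos and 1 was lower, against a background of 9.79% of all genes higher and 12.0% lower. The largest difference of any Hox gene was 1.24-fold. On simulated data of this stage, the same fit recovered 0% of 50 genes changed by 0.25 on the log2 scale and 24% of 50 changed by 0.5. The simulation left 18389 of its 18582 genes unchanged and drew the changed ones from both tested classes. Its recovery therefore need not hold for these Hox genes. A lack of calls does not show that they were unchanged. When the spread was estimated over all 12 libraries in 1 limma fit, 4 Hox genes were called, hoxd3a (adjusted p = 0.0128), hoxd4a and hoxc8a (0.0318 each) higher and hoxb1a (0.0466) lower, and 11.2% of all genes. In the fit of this stage alone, the 95% interval lay within 1.5-fold either way for 45 of the 48 genes, or 93.8%, against 59.6% of all tested genes. The exceptions were hoxc13b, hoxa13b and hoxc13a, all of the lower tested class. Over the 48 genes the median absolute difference was 0.096 on the log2 scale, against 0.158 over all genes, and the median SE was 0.089, against 0.121. Of the 48, 40 lay in the upper level class, against 60.7% of all tested genes. The values over all genes were not matched for level, so whether these contrasts are particular to Hox genes was not tested.

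Within these bounds most Hox genes stood slightly to the homozygous side. The difference was above 0 for 37 of 48 genes, or 77.1%, against 50.8% of all genes, with a median of 0.073 against 0.0038 over all genes. Single libraries stood apart in this measure. The median over the 48 genes was 0.018, 0.00040 and 0.13 in homozygous 2, a and b, against 0.019, -0.022 and -0.080 in heterozygous 1, 2 and 3. Homozygous b therefore lay above the others and heterozygous 3 below them, while the remaining 4 libraries overlapped. Homozygous b was the highest library for 28 of the 48 genes, or 58.3%, where it was highest for 16.3% of all genes. Heterozygous 3 was the lowest for 19, or 39.6%, where it was lowest for 16.3% of all genes. Without homozygous b, 30 of 48 genes were above 0 with a median of 0.029. Without heterozygous 3, it was also 30 of 48, with a median of 0.027.

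**Figure D1:**
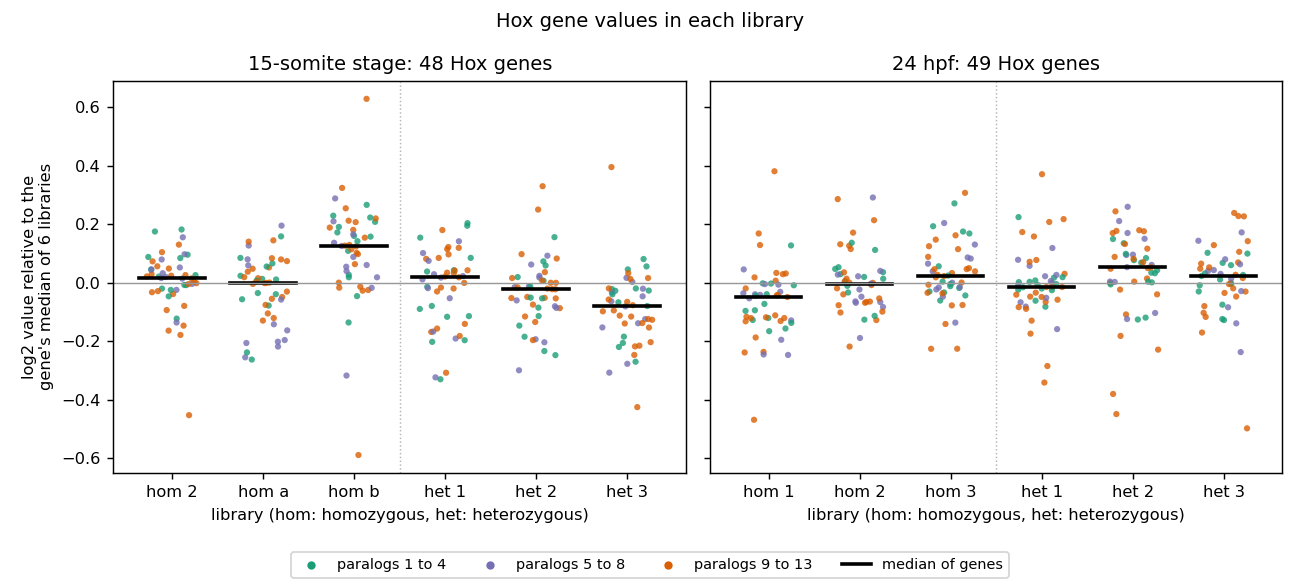
Log2 value of each tested Hox gene (points, coloured by paralog group) relative to the gene's own median, in each library (horizontal axis), with the 15-somite stage on the left and 24 hpf on the right, and with the median of the genes as a bar. At the 15-somite stage homozygous b has a median of 0.13 and heterozygous 3 a median of -0.080, and the other 4 libraries lie close to 0.

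The genes of the anterior end, paralogs 1 to 4, held several of the larger differences. hoxd3a, a paralog of the posterior hindbrain, had values of 0.085, 0.085 and 0.23 in homozygous 2, a and b, against -0.11, -0.085 and -0.27 in heterozygous 1, 2 and 3. All homozygous libraries lay above all heterozygous ones, and the difference was 0.29 (SE 0.079, limma adjusted p = 0.0924). hoxd4a, its neighbour, which marks the caudal hindbrain and the spinal cord behind it, had values of 0.18, 0.067 and 0.17 in homozygous libraries, against -0.089, -0.15 and -0.067 in heterozygous ones. Its groups did not overlap either, with a difference of 0.24 (SE 0.065, adjusted p = 0.0887). Where 77.1% of all tested Hox genes stood above 0, all 4 paralogs of number 3 and all 4 of number 4 did, with medians of 0.14 and 0.22. Among them, hoxa4a stood at 0.20 (SE 0.076, adjusted p = 0.19), hoxc4a at 0.23 (SE 0.11), hoxb3a at 0.17 (SE 0.086) and hoxb4a at 0.13 (SE 0.069).

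hoxb1a went the other way. This gene, which gives rhombomere 4 of the hindbrain its identity, had values of -0.046, -0.24 and -0.14 in homozygous libraries, against 0.086, 0.16 and 0.046 in heterozygous ones. Every homozygous library lay below every heterozygous one, and the difference was -0.24 (SE 0.073, adjusted p = 0.126 in limma). hoxb1b, the duplicate that acts earlier in the hindbrain, stood at -0.034 (SE 0.084), with overlapping groups. Genes known from the hindbrain thus held values on both sides of 0, none past the test in the fit of this stage alone.

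In the trunk set, paralogs 5 to 8, the higher values were those of the hoxca cluster. hoxc5a, a marker of the anterior trunk, had values of 0.16, 0.080 and 0.13 in homozygous libraries, against -0.17, -0.30 and -0.080 in heterozygous ones. hoxc8a, a thoracic gene in mouse, had values of 0.046, 0.20 and 0.055 in homozygous libraries, against -0.32, -0.20 and -0.046 in heterozygous ones. The groups did not overlap for either gene, and the differences were 0.30 (SE 0.075, adjusted p = 0.0709 in limma) and 0.29 (SE 0.089, adjusted p = 0.124). hoxb8b had values of -0.14, -0.22 and -0.017 in homozygous libraries, against 0.023, 0.063 and 0.017 in heterozygous ones, a difference of -0.16 (SE 0.071, adjusted p = 0.254) with groups apart. hoxb7a, 1 of the Hox genes that act below Cdx in zebrafish blood formation, stood at 0.072 (SE 0.089), and its groups overlapped.

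Across all tested Hox genes at this stage, homozygous libraries lay wholly above heterozygous ones for 10 genes and wholly below for 2, hoxb1a and hoxb8b. These are 20.8% and 4.17% of the 48, against 13.5% and 15.6% of all genes.

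The posterior genes, paralogs 9 to 13, had a median difference of 0.066, with 18 of 22 above 0. hoxa9a, also a Cdx target in blood formation, had values of 0.030, 0.15 and 0.18 in homozygous libraries, against -0.030, -0.051 and -0.21 in heterozygous ones, with groups apart and a difference of 0.22 (SE 0.078, adjusted p = 0.173 in limma). All 5 paralogs of number 9, all 5 of number 11 and all 3 of number 12 had differences above 0, with medians of 0.075, 0.066 and 0.10. Of all tested Hox genes, 77.1% stood above 0. In these sets hoxa9b, hoxc9a, hoxa11b, hoxc11a and hoxc12b changed sign when 1 library was left out. Among paralogs of number 12, hoxc12a stood at 0.19 (SE 0.081), with overlapping groups. hoxa10b, singled out after its values were seen, stood at 0.22 (SE 0.082, adjusted p = 0.183), with groups apart. hoxa13b, which acts in the distal fin, had the largest difference of all Hox genes at 0.31 but also an SE of 0.26. Its values were -0.038, 0.038 and 0.63 in homozygous libraries, against -0.14, 0.25 and -0.43 in heterozygous ones, and the groups overlapped. The difference rested largely on homozygous b and heterozygous 3. Without homozygous b it was 0.10, and without heterozygous 3 it was 0.15. Differences of the other tested paralogs of number 13 were -0.17 (hoxc13b, SE 0.21), -0.14 (hoxc13a, SE 0.27), -0.13 (hoxd13a, SE 0.18) and 0.042 (hoxa13a, SE 0.18), with overlapping groups in each.

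hoxb13a, a gene of the tail bud and the last gene of its cluster, was barely detected at the 15-somite stage. Its level before centring, in normalized units of about 1 read each, was 1.0, 1.0 and 2.61 in homozygous 2, a and b, where 1.0 is the floor, against 16.3, 4.40 and 3.84 in heterozygous 1, 2 and 3. The homozygous libraries lay below the heterozygous ones, and the heterozygous value rests largely on 1 library. In a limma fit with no filter on level its difference had an adjusted p of 0.19, and no fold is given for so few reads. At 24 hpf the gene had passed 16 units, with values of 0.13, 0.29 and -0.14 in homozygous libraries, against -0.13, -0.38 and 0.14 in heterozygous ones, a difference of 0.21 (SE 0.20) with overlapping groups.

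**Figure D2:**
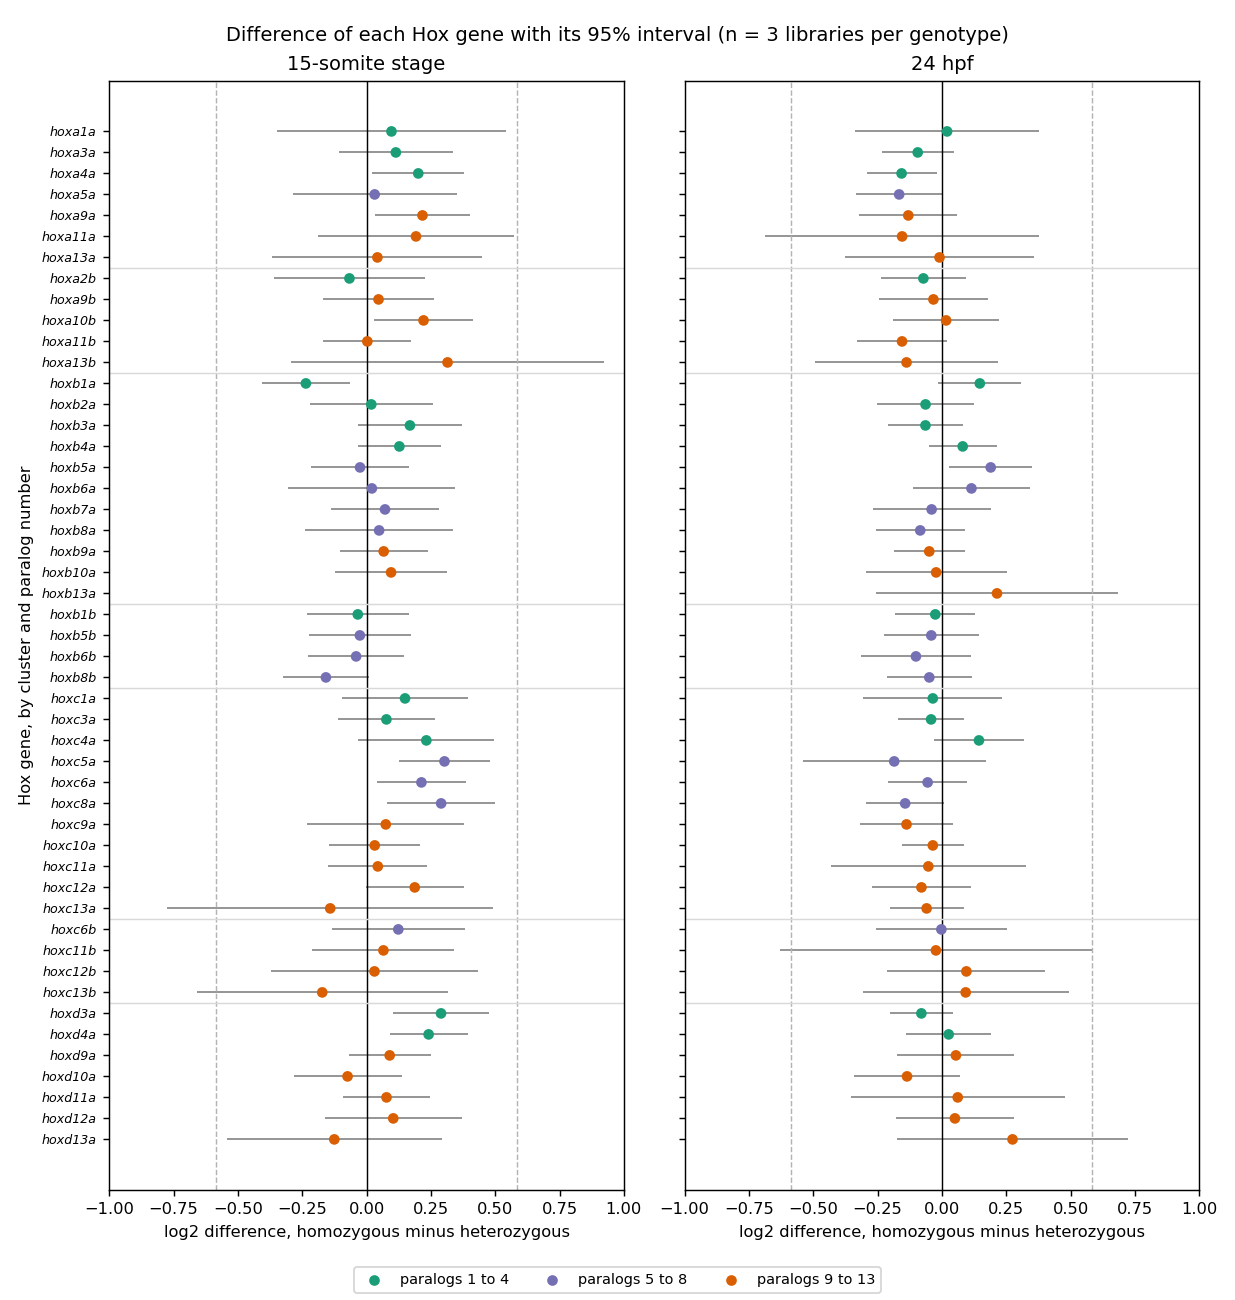
Log2 difference, homozygous minus heterozygous (horizontal axis), of each Hox gene with its 95% interval from limma, by cluster and paralog number down the page, at the 15-somite stage (left) and 24 hpf (right), with dashed lines at 1.5-fold either way. All points lie between -0.24 and 0.31, and only intervals of genes in the lower tested class, such as hoxa13b and hoxc13a, reach past the dashed lines.

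At 24 hpf, when segmentation is nearly complete, no Hox gene was called either. Of 49 tested, 0 passed limma's adjusted p, at a stage where 0.275% of all genes were called, and the lowest adjusted p was 0.635. At an unadjusted p below 0.05, hoxb5a was higher in homozygous embryos and hoxa4a and hoxa5a were lower, against 3.15% of all genes higher and 4.05% lower. The largest difference was 1.21-fold, of hoxd13a. On simulated data of this stage, the fit recovered 2.04% of 49 genes changed by 0.25 on the log2 scale and 30% of 50 changed by 0.5. The changed genes were again drawn from both tested classes, so this recovery need not hold for Hox genes. Intervals lay within 1.5-fold for 45 of 49 genes, or 91.8%, against 70.9% of all genes. hoxb13a, hoxd13a, hoxc11b and hoxa11a had wider ones. In the upper level class lay 38 of the 49, against 60.1% of all tested genes, so the share over all genes was again not matched for level.

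Here more Hox genes stood on the heterozygous side: 34 of 49, or 69.4%, had a difference below 0, against 49.7% of all genes. The median was -0.041, against 0.00080 over all genes. Library medians over the 49 genes were -0.049, -0.0031 and 0.023 in homozygous 1, 2 and 3, against -0.014, 0.053 and 0.023 in heterozygous 1, 2 and 3. The groups overlapped, with homozygous 1 lowest and heterozygous 2 highest. Homozygous 1 was the lowest library for 20 of the 49 genes, or 40.8%, against 19.7% of all genes, and heterozygous 2 was the highest for 20, where it was highest for 3032 of the 18899 genes. Without homozygous 1, 27 genes were below 0 and 22 above, with a median of -0.0098. Without heterozygous 2, 30 were below 0, with a median of -0.028.

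Of the anterior genes at 24 hpf, hoxa4a had values of -0.16, -0.13 and -0.018 in homozygous 1, 2 and 3, against 0.018, 0.085 and 0.068 in heterozygous libraries, a difference of -0.16 (SE 0.058, adjusted p = 0.645 in limma). hoxd3a had values of -0.072, -0.11 and -0.0041 in homozygous libraries, against 0.020, 0.0041 and 0.027 in heterozygous ones, a difference of -0.080 (SE 0.052, adjusted p = 0.825). Homozygous libraries lay below heterozygous ones for both, the opposite order to the earlier stage. Of the 4 paralogs of number 4, however, 3 still stood above 0, with a median of 0.053 over the 4. Among them hoxc4a, named here after its values were seen, stood at 0.14 (SE 0.074, adjusted p = 0.762 in limma). Its homozygous libraries lay above the heterozygous ones. hoxb1a had values of -0.0024, 0.14 and 0.18 in homozygous libraries, against 0.0024, -0.13 and -0.0083 in heterozygous ones. Its groups overlapped, and the difference was 0.15 (SE 0.069, adjusted p = 0.729). All paralogs of number 2 and number 3 stood below 0, with medians of -0.068 and -0.072, and the arch gene hoxa2b stood at -0.072 (SE 0.071).

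In the trunk set at 24 hpf, hoxb5a, a gene of the anterior spinal cord, had values of 0.046, 0.028 and 0.20 in homozygous libraries, against -0.16, -0.10 and -0.028 in heterozygous ones. The groups did not overlap, and the difference of 0.19 (SE 0.068) was that of the lowest adjusted p at this stage, 0.635 in limma. hoxc5a had values of -0.041, -0.047 and -0.047 in homozygous libraries, against 0.12, 0.26 and 0.041 in heterozygous ones, and hoxc8a had -0.036, -0.19 and -0.015 in homozygous libraries, against 0.079, 0.097 and 0.015 in heterozygous ones. Both had groups apart, with differences of -0.19 (SE 0.15, adjusted p = 0.871) and -0.14 (SE 0.065, adjusted p = 0.716). The 3 paralogs of number 8 all stood below 0, with a median of -0.084.

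Groups were apart for 7 of the 49 genes at 24 hpf, or 14.3%, against 12.8% of all genes. Homozygous libraries lay above for 2 and below for 5, against 6.33% and 6.47% of all genes. Among posterior genes, hoxd13a, which acts in the fin and tail, had values of 0.17, 0.036 and -0.036 in homozygous libraries, against 0.072, -0.23 and -0.50 in heterozygous ones, a difference of 0.27 (SE 0.19, adjusted p = 0.842 in limma) with groups overlapping. hoxa11b, a fin bud gene, stood at -0.16 (SE 0.074), also with groups overlapping.

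As a reading of axial age, the differences over all tested Hox genes showed no steady rise or fall with paralog number. At the 15-somite stage the median difference was 0.12 for the 14 genes of paralogs 1 to 4, 0.040 for the 12 of paralogs 5 to 8 and 0.066 for the 22 of paralogs 9 to 13. Within the last group, number 13 had a median of -0.13, with 3 of 5 genes below 0, and the medians of numbers 9 to 12 lay above 0. The gene hoxb13a was not tested at that stage and is not in these values. At 24 hpf the medians were -0.039 over 14 genes, -0.052 over 12 and -0.033 over 23, and number 13 had a median of 0.041 over 6. Across genes, Spearman's rho between difference and paralog number was -0.12 over 48 genes at the 15-somite stage and 0.091 over 49 at 24 hpf. Restricted to genes of the upper level class it was 0.0030 over 40 and -0.065 over 38. These are descriptions across genes, which share libraries and, within a cluster, enhancers.

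Each library also gave its own reading, the median of paralogs 9 to 13 minus that of paralogs 1 to 4. At the 15-somite stage it was -0.023, -0.0070 and -0.034 in homozygous 2, a and b, against 0.073, 0.031 and -0.081 in heterozygous 1, 2 and 3. The homozygous libraries fell inside the range of the heterozygous ones, with means of -0.021 ± 0.013 in homozygous and 0.0080 ± 0.080 in heterozygous libraries (SD, n = 3 each). At 24 hpf it was 0.034, -0.025 and 0.027 in homozygous libraries, against -0.028, 0.012 and -0.00090 in heterozygous ones, with means of 0.012 ± 0.032 and -0.0057 ± 0.020 (SD, n = 3 each). The groups overlapped here too, and at both stages the means lay closer together than the larger SD. A shift between posterior and anterior genes was not tested, and overlap of 3 libraries with 3 sets no bound on it.

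**Figure D3:**
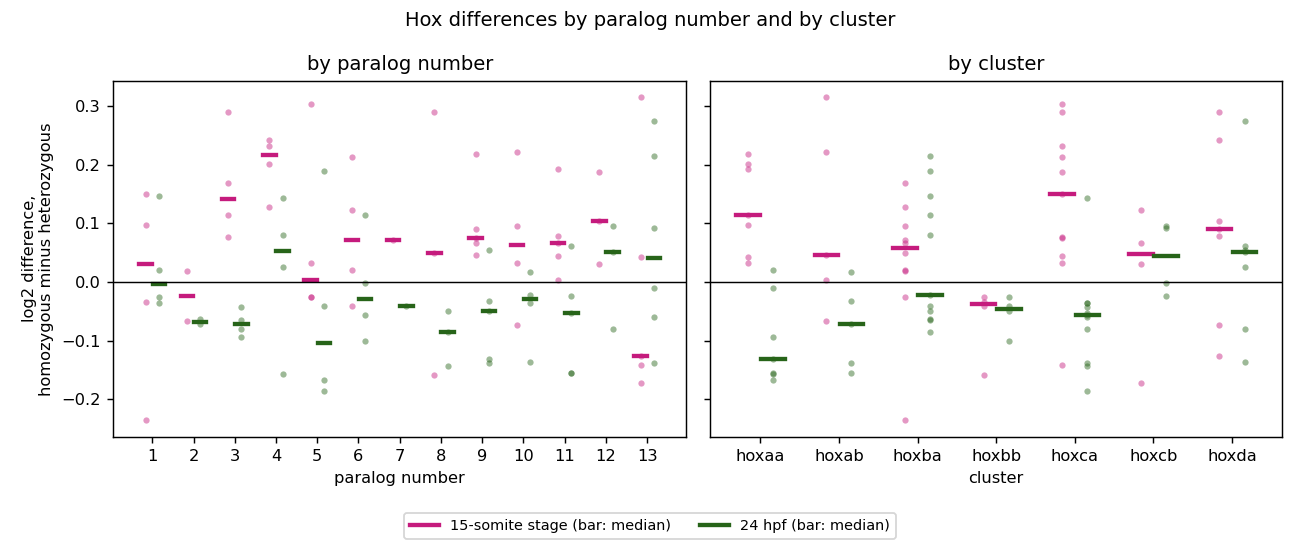
Log2 difference, homozygous minus heterozygous (vertical axis), of each tested Hox gene (points) with the median (bars), by paralog number on the left and by cluster on the right, for the 15-somite stage and 24 hpf side by side. Medians of paralogs 3 and 4 at the 15-somite stage reach 0.14 and 0.22, and that of paralog 13 is -0.13. At 24 hpf the medians of paralogs 5 to 11 lie below 0, and those of 12 and 13 are 0.0505 and 0.041. A trend over numbers was not tested.

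By cluster, the 11 genes of hoxca had the highest median at the 15-somite stage, 0.15, with 10 above 0. All 7 genes of hoxaa were above 0, with a median of 0.11. The 4 genes of hoxbb were all below 0 at both stages, with medians of -0.037 and -0.045, though without homozygous a the first median was 0.021. Its members hoxb1b, hoxb5b, which limits heart atrial cell number downstream of retinoic acid in zebrafish, hoxb6b and hoxb8b ranged from -0.16 to -0.026 at the 15-somite stage and from -0.10 to -0.026 at 24 hpf. At 24 hpf the medians were -0.13 for hoxaa, with 6 of 7 below 0, and -0.056 for hoxca, with 10 of 11 below 0. hoxba stood at 0.058 at the 15-somite stage and -0.023 at 24 hpf, hoxcb at 0.048 and 0.045, and hoxda at 0.090 and 0.050.

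Within hoxda, Spearman's rho of difference on paralog number was -0.75 at the 15-somite stage and 0.64 at 24 hpf, over 7 genes each. hoxd3a and hoxd4a headed the order at the first stage, and hoxd13a at the second. In hoxca it was -0.52 at the 15-somite stage and -0.30 at 24 hpf over 11 genes, in hoxaa 0.0 and -0.18 over 7, and in hoxba 0.33 over 10 and 0.10 over 11. The clusters thus did not share an order, and the 3 with 4 or 5 genes were not ranked.

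The hoxab cluster lies on chromosome 16, the chromosome of etv2, in RefSeq's annotation of GRCz12tu, an assembly other than the Zv9 of the files. None of the 5 hoxab genes lay within 5 Mb of etv2. The hoxab median was 0.047 at the 15-somite stage and -0.072 at 24 hpf, both inside the range of the other clusters.

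The genotype difference itself was compared between stages in 1 limma fit over all 12 libraries and the 17683 genes tested at both. hoxd3a was called, with a difference at 24 hpf lower than that at the 15-somite stage by an interaction of -0.37 (SE 0.091, 95% interval -0.57 to -0.17, adjusted p = 0.0454). It was 1 of 48 Hox genes, or 2.08%, against 3.54% of all genes. Removing any library other than heterozygous 1 of the 15-somite stage ended this call, in 11 of 12 cases, with adjusted p up to 0.109, while the value stayed between -0.41 and -0.31. The next in line missed the threshold: hoxc8a at -0.43 (adjusted p = 0.0506), hoxb1a at 0.38 (adjusted p = 0.0524), hoxa4a at -0.36 (adjusted p = 0.0536) and hoxc5a at -0.49 (adjusted p = 0.176). Of the 48, 39 lay below 0, or 81.2%, against 50.3% of all genes, and 27 stood above 0 at the 15-somite stage and below 0 at 24 hpf. A further 10 stood above 0 at both stages, 7 below at both, and 4, hoxb1a, hoxb5a, hoxc13b and hoxd13a, below and then above. These patterns were not counted over all genes. With 77.1% of Hox genes above 0 at the 15-somite stage and 69.4% below 0 at 24 hpf, many would change side from those shares alone. The patterns are therefore no separate result.

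**Figure D4:**
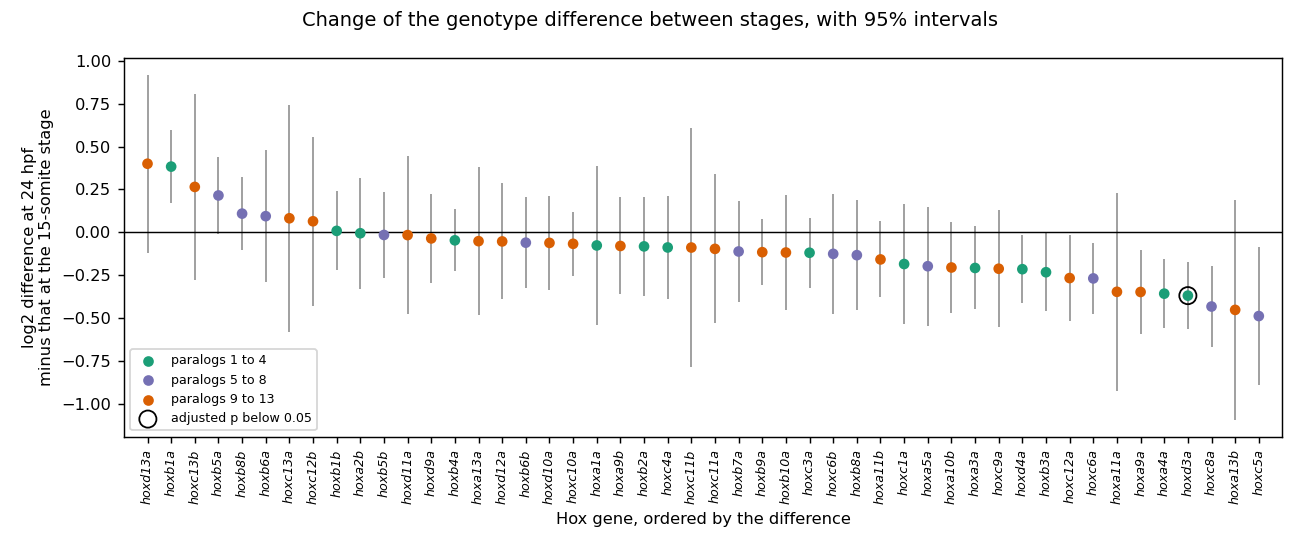
Log2 difference at 24 hpf minus that at the 15-somite stage (vertical axis) for each of 48 Hox genes, ordered by value, with 95% intervals from limma. The circled gene is hoxd3a at -0.37, and 39 of the 48 points lie below 0.

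**Figure D5:**
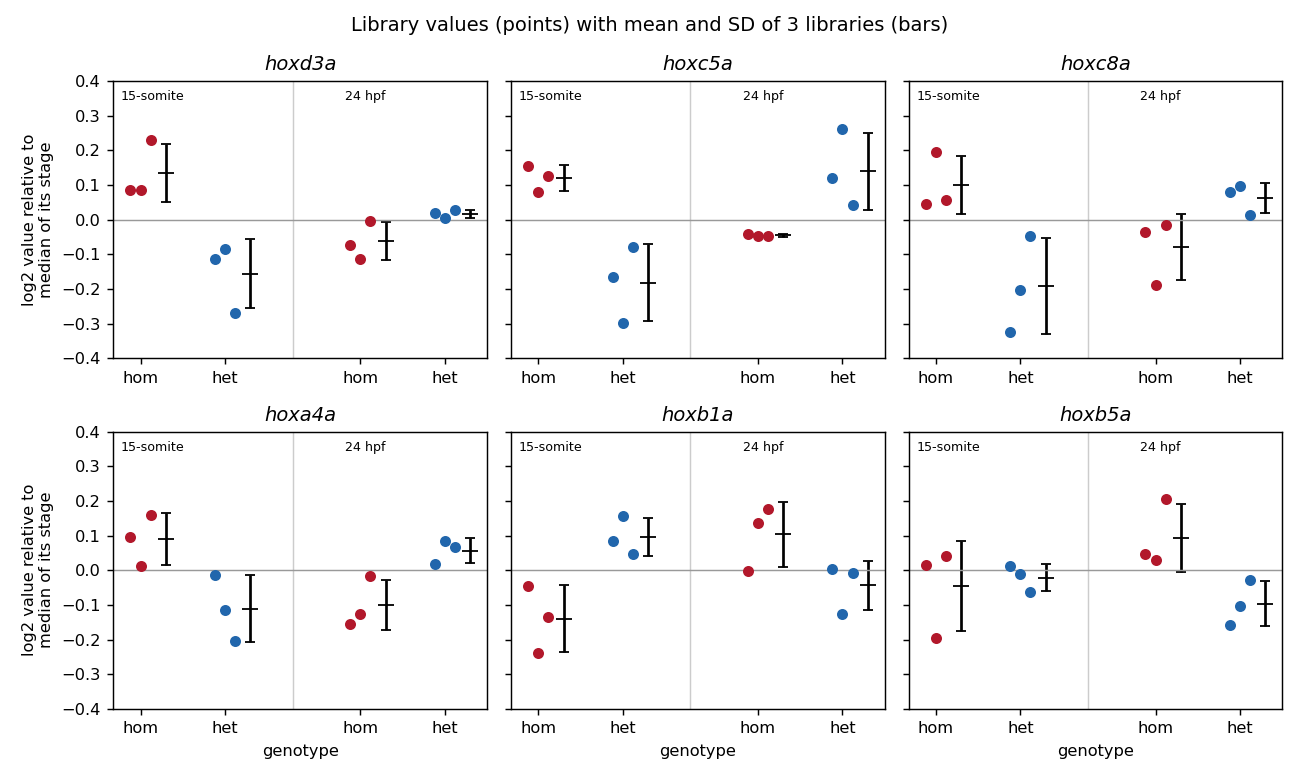
Log2 value relative to the gene's median in its stage (vertical axis) in each library (points), with mean and SD of 3 libraries (bars), for 6 Hox genes in homozygous (hom) and heterozygous (het) embryos at both stages. For hoxd3a the homozygous libraries lie above the heterozygous ones at the 15-somite stage and below them at 24 hpf, and for hoxb5a the groups overlap at the 15-somite stage only.

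Genes that set or read the Hox code were listed by role. None of the 6 lists held a called gene at either stage in limma, where 4.33% and 0.275% of all genes were called. Of 12 tested cofactors of the Pbx and Meis families, which bind DNA with Hox proteins, the median difference was 0.033 at the 15-somite stage and -0.0050 at 24 hpf. The caudal and even-skipped genes, upstream and neighbouring regulators of posterior identity, were all above 0 at the first stage (6 genes, median 0.074) and had a median of -0.012 over 5 genes at 24 hpf. The 18 genes of retinoic acid synthesis, breakdown and reception, the signal that opens anterior Hox genes, had medians of 0.14 and 0.058. Members stood on both sides of 0 at the 15-somite stage, 11 above and 7 below. At 24 hpf 17 stood above 0 and 1 below, where 9513 of the 18899 genes tested stood above. The 3 largest differences at the 15-somite stage were those of the receptor genes rxrab (0.60, SE 0.31) and rargb (0.33, SE 0.35) and of the degrading enzyme gene cyp26c1 (0.32, SE 0.072, limma adjusted p = 0.0554). A second degrading enzyme gene, cyp26a1, named after its values were seen, stood at -0.23 at that stage (SE 0.069, adjusted p = 0.116). The 12 hindbrain segment regulators had medians of 0.14 and 0.010, and the 19 Polycomb and trithorax genes, which hold Hox genes off or on, had 0.033 and 0.0085. At an unadjusted p below 0.05 at the 15-somite stage, 2 cofactors were higher and 0 lower, 1 and 0 caudal and even-skipped genes, 2 and 3 retinoic acid genes, 4 and 1 hindbrain regulators, and 3 and 2 Polycomb and trithorax genes, where 9.79% of all genes were higher and 12.0% lower. At 24 hpf none of these lists held more than 1 in a direction.

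The axial extension list, genes of the tail bud where posterior Hox genes start, had 14 of 15 members above 0 at the 15-somite stage, where 50.8% of all genes were. Its median was 0.17, against 0.0038 over all genes, and 7 of 15 were higher at an unadjusted p below 0.05, against 9.79% of all genes, though none was called. The largest differences of the list, named for their size, were those of wnt3a and tbx6. wnt3a, a signal that keeps tail bud progenitors, stood at 0.67 (limma adjusted p = 0.0786), and tbx6, a paraxial mesoderm factor, at 0.51 (adjusted p = 0.0509). By library, the median of the axial extension list was 0.038, 0.13 and 0.11 in homozygous 2, a and b, against -0.072, -0.065 and -0.062 in heterozygous 1, 2 and 3, so these groups did not overlap. Its part in the Hox values was not tested. At 24 hpf the list's median was 0.043 with 0 of 15 at an unadjusted p below 0.05.

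Markers of tissues in the embryo were read beside the Hox genes. Neural markers, which share tissue with most Hox expression, were above 0 in 4 of 4 at the 15-somite stage, with a median of 0.067 and none called. By library, the median of these 4 was 0.056, -0.044 and 0.13 in homozygous 2, a and b, against 0.065, -0.066 and -0.11 in heterozygous 1, 2 and 3, so this median was again highest in homozygous b and lowest in heterozygous 3. Single genes varied: homozygous b was highest for elavl3 and sox2, and heterozygous 1 for sox3 and neurog1. The lowest was heterozygous 3 for sox2 and sox3, heterozygous 1 for elavl3 and homozygous a for neurog1. Differences of these markers ranged from 0.0042 to 0.45, the latter of elavl3. At 24 hpf all 4 stood below 0, with library medians of -0.084, -0.013 and -0.037 in homozygous 1, 2 and 3, against 0.0071, 0.035 and 0.081 in heterozygous 1, 2 and 3. Here homozygous 1 was again the lowest, but heterozygous 3 was the highest, not heterozygous 2. Endothelial markers fell at the 15-somite stage in 3 of 3, with kdrl at -1.41, cdh5 at -4.76 and fli1a at -1.10. At 24 hpf kdrl alone of them was called, at -1.11. There cdh5 stood at -1.28 and fli1a at -0.39, both lower at an unadjusted p below 0.05 in limma, where 4.05% of all genes were lower. List medians of the endothelial markers by library at the 15-somite stage were -0.77, -0.59 and -0.73 in homozygous 2, a and b, against 0.67, 0.59 and 0.92 in heterozygous 1, 2 and 3. Of 3 epidermal markers, 2 fell at the 15-somite stage, cyt1 at -0.59 and krt4 at -0.35, with list medians of -0.16, -0.13 and -0.15 in homozygous libraries, against 0.31, 0.17 and 0.18 in heterozygous ones. No other marker was called at either stage. Above 0 at the 15-somite stage stood 2 of 4 muscle, 3 of 3 notochord, 2 of 3 blood, 2 of 3 fin and lateral plate and 2 of 2 tail bud markers, with list medians of 0.023, 0.11, 0.12, 0.25 and 0.34. The tail bud markers, tbx16 and wnt8a, and the muscle marker tbx6 also belong to the axial extension list, so they are no separate reading. The lowest library was heterozygous 3 for the muscle, notochord and tail bud medians, heterozygous 2 for the blood median and homozygous a for the fin median. The highest was homozygous b for the blood, fin and tail bud medians, heterozygous 1 for the muscle median and homozygous a for the notochord median. At 24 hpf all 4 muscle markers stood below 0, with a median of -0.044, homozygous 1 the lowest library and homozygous 3 the highest. The other medians there were 0.071 for notochord, 0.38 for blood, 0.064 for fin and lateral plate, 0.064 for epidermis and -0.10 for tail bud. Of the 3 blood markers, 2 were higher at an unadjusted p below 0.05 at 24 hpf, against 3.15% of all genes. The values hold no absolute level, so summed levels of the lists cannot be given, and the part of these tissues in the Hox values was not tested.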

How the data were processed

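The authors deposited 1 table per stage with log2 values of 31172 genes in 6 libraries. From the values, levels were floored at 1 before the log2 and each gene's median was then subtracted. The submitters' processing notes name Zv9 and DESeq. The sources used here name no aligner, counter, annotation, strand setting or version, so reads of overlapping Hox transcripts may be shared. Total depth is unknown: from steps between low values, 1 read was worth 0.881 to 1.10 normalized units in 15-somite libraries and 0.940 to 1.04 in 24 hpf ones, and only 42.4% to 55.8% of low values came out whole within 0.003 read, so no count test was run. The level class was estimated from the storage step of the values; genes at 16 or above were tested with limma 3.58.1 in R 4.3.3, homozygous minus heterozygous, two-sided, with the prior spread per level class. p-values measure the spread between batches of embryos. The script was tested on simulated data. Members, lists and the rule for named genes (called members, the 4 highest and 4 lowest per stage, groups wholly on 1 side of 0) were chosen with earlier results of these data known.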

Additional observations from a re-analysis of the deposited data

Results flagged for a closer look

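The genotype difference of hoxd3a, a paralog of the posterior hindbrain, differed between the stages by -0.37 on the log2 scale, 24 hpf minus the 15-somite stage (limma interaction, adjusted p = 0.0454 over 17683 genes). Homozygous libraries lay above heterozygous ones in 3 of 3 at the 15-somite stage and below them in 3 of 3 at 24 hpf. Fitted alone, neither stage's own difference passed the threshold; with the spread taken over all 12 libraries, the difference at the 15-somite stage did (0.29, adjusted p = 0.0128).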

How the results depend on the processing

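Total depth is not known, and genes below 16 normalized units were not tested. With 3 libraries per group the intervals are wide beside the differences, so a gene that was not called can still differ. At the 15-somite stage no Hox gene was called under any alternative but 1: with all 12 libraries in a single fit, 4 of 48 were called, and 11.2% of all genes. At 24 hpf the count was 0 under every alternative run, the replicate block included, where all-gene calls were 19 lower and 1 higher, against 49 and 3 without it. Same-numbered libraries at 24 hpf correlated at 0.119, 0.028 and -0.006 after removal of group means, and libraries of unlike number at -0.112 to 0.087. With 3 libraries per group these values cannot settle whether the numbers pair the libraries. The shared column name left no block to fit at the 15-somite stage. Over all genes, 15-somite calls without heterozygous 2 were 56 lower and 11 higher, and under a single prior spread they were 216 and 45, against 639 and 155 in the fit reported. The count of Hox genes whose difference changed between stages, 1, was 0 with no filter on level (hoxd3a adjusted p = 0.059) and 0 with 1 prior spread for all genes (hoxd3a adjusted p = 0.0799). It was 4 after quantile normalization, an alternative chosen after seeing the data (hoxd3a, hoxa4a, hoxb1a, hoxc8a). Over all 17683 genes, calls there were 269 below 0 and 554 above, against 163 and 463 in the fit reported. Leaving out each library in turn, also chosen after seeing the data, gave 0 to 2 Hox genes. The 2 were called without heterozygous 1 of the 15-somite stage, where all-gene calls were 168 below 0 and 544 above. The cause of these changes in count was not tested. All 72 medians recomputed with every library kept held within the spread. Leaving out 1 library moved some medians at the 15-somite stage: paralogs 5 to 8 ranged from -0.0164 to 0.1408, hoxca from 0.085 to 0.2207 and hoxda from 0.0336 to 0.1234. At 24 hpf, paralogs 5 to 8 ranged from -0.1067 to -0.0287, hoxaa from -0.172 to -0.0468, hoxba from -0.0404 to 0.0563, hoxca from -0.1187 to -0.0236, hoxcb from 0.026 to 0.1008 and hoxda from -0.0243 to 0.0841. Sign changes were followed only for genes under the naming rule, 35 at the 15-somite stage and 21 at 24 hpf. Hox genes outside it, such as hoxb2a without homozygous b, changed sign too and are not listed. Among the named genes, some changed sign when 1 library was left out. At the 15-somite stage their ranges were -0.0435 to 0.0403 for hoxa11b, -0.0519 to 0.0897 for hoxa13a, -0.005 to 0.2164 for hoxa1a, -0.1111 to 0.1606 for hoxa5a, -0.0296 to 0.1043 for hoxa9b, -0.0977 to 0.0188 for hoxb1b, -0.0679 to 0.0439 for hoxb5b, -0.0809 to 0.0293 for hoxb6b, -0.0107 to 0.1175 for hoxc11a, -0.0573 to 0.0866 for hoxc12b, -0.2973 to 0.085 for hoxc13a and -0.06 to 0.1915 for hoxc9a. At 24 hpf they were -0.0725 to 0.0326 for hoxb1b, -0.0995 to 0.0169 for hoxb5b, -0.114 to 0.0528 for hoxb7a and -0.1065 to 0.0106 for hoxb8b.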

Other observations

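The genome duplication of teleosts left 11 pairs of Hox genes with both an a and a b copy among those tested at both stages, such as hoxa9a with hoxa9b and hoxb1a with hoxb1b. The 2 copies of a pair stood on the same side of 0 in 9 of 11 pairs at the 15-somite stage and in 6 of 11 at 24 hpf. Both copies are read in the same libraries, and 77.1% of all Hox genes stood above 0 at the 15-somite stage and 69.4% below 0 at 24 hpf, so these counts describe the pairs and show nothing particular to them.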
